A study of Mus musculus with 13 samples.

Results

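The genes described here are 52 genes of the p53 pathway and of apoptosis, chosen by name: p53 with its regulators, p53 target genes, the BCL2 family, caspases with their cofactors, and inhibitors of cell death. Of these, 51 had a value in at least 1 library of 2-cell mouse embryos, and Phlda3 was not analysed here. A filter on the mean over all libraries (1 FPKM or more, a fragment density scaled to transcript length and library size) left 35 of the 52 genes for testing, among 9766 of 16739 gene IDs. The embryos came from in vitro fertilisation with sperm of Swiss males. AAE embryos (3 libraries) were made with sperm collected 3 days after the last of 5 daily intraperitoneal injections of acrylamide at 25 mg/kg, so these sperm had been in the epididymis during exposure. AAS embryos (3 libraries) were made with sperm collected 24 days after the same treatment, sperm that had been spermatocytes during exposure. Control embryos (3 libraries) were made with sperm of males injected with the vehicle, PBS. No collection day is recorded here for the control sperm, so whether it matched that of either exposed group is not known. The labels describe injection of the males only. Each library held RNA of a group of embryos, whose number the labels do not give, so fewer cells with a transcript and less of it per cell cannot be told apart. The labels do not say that replicates came from separate males or fertilisations, and all p-values here reflect the scatter among these libraries alone, which may be technical.

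Acrylamide and its metabolite glycidamide bind proteins and DNA, and DNA damage is a classical trigger of the p53 response. p53 is a transcription factor that is kept scarce by MDM2, a ubiquitin ligase, and kept inactive by MDM4, a relative that covers its activation domain. Once released it switches on genes of cell-cycle arrest, repair and cell death, Mdm2 among them. Death then runs through the BCL2 family at the mitochondrion: BH3-only proteins release BAX and BAK from pro-survival members, cytochrome c leaves, and APAF1 and caspase 9 start the caspase cascade. At the 2-cell stage mouse embryos still carry transcripts stored by the oocyte beside the first products of their own genome, and messenger RNA says nothing of p53 protein, which is mostly regulated by its stability.

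The libraries held the defining transcripts of the labelled stage. The summed level of the 10 measured 2-cell markers, such as Zfp352 and the Zscan4 genes, ran from 1697 to 2359 FPKM in AAE, 1597 to 1980 in AAS and 1986 to 2299 in control libraries. The 13 oocyte markers summed to 3088 to 3902, 2704 to 3022 and 2826 to 3702 FPKM in AAE, AAS and control. The 8 blastocyst markers summed to 26.7 to 28.5, 17.4 to 28.9 and 24.9 to 35.6 FPKM. Cumulus and granulosa markers were low, with 9 of 13 listed and sums of 0.68 to 4.78, 1.12 to 8.76 and 4.59 to 7.19 FPKM in AAE, AAS and control, where Cyp19a1 was listed in all 9 libraries at up to 2.85 FPKM, Amhr2 reached 3.09 and Fshr was listed in 1 library. Of the sperm markers 3 of 8 were listed, with sums of 0.3 to 4.92, 0 to 0.09 and 0 to 1.61 FPKM, and of the blood markers 2 of 6, with sums of 1.51 to 8.58, 0 to 2.15 and 0.6 to 6.75. The part of these other cells in the results below was not tested. Depth is unknown because only FPKM were used. Libraries listed 11625 to 13914 genes in AAE, 12173 to 12673 in AAS and 13675 to 14392 in control. AAE replicate 3 and AAS replicate 2 had the lowest median correlation with the other libraries, 0.872 and 0.870, against 0.894 to 0.927 for the rest.

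Of the whole list, 4 genes stood far above the rest, and 3 of them were counted here as inhibitors of p53 or of cell death. Mean levels over the 9 libraries were above 100 FPKM for Mdm4, Bcl2l10, Birc3 and Rrm2b. A further 12 lay between 10 and 100 FPKM, 19 between 1 and 10 and 16 below 1. In the whole data set 3.8% of genes had a mean above 100 FPKM and 41.7% one below 1.

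**Figure D1:**
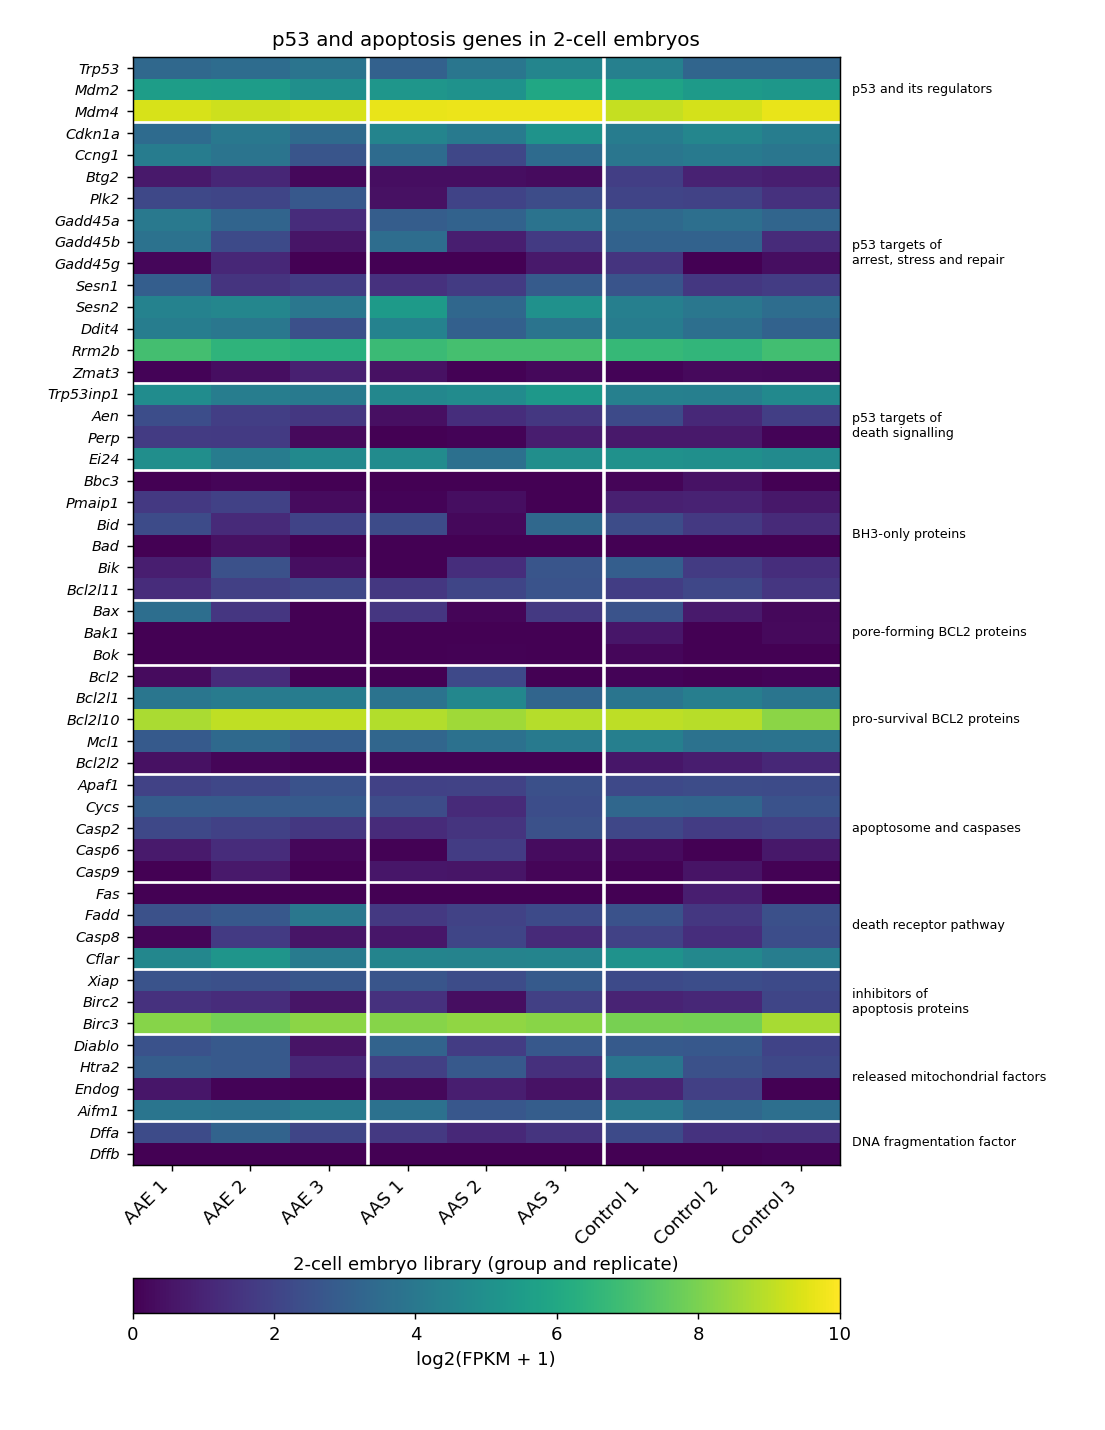
Levels of the 51 genes with a value (rows, grouped by role) in the 9 libraries of 2-cell embryos (columns), as log2(FPKM + 1) on a colour scale of 0 to 10. Mdm4, Bcl2l10, Birc3 and Rrm2b are bright in all 9 libraries, while Bak1, Bok, Bad, Bbc3, Fas and Dffb are near 0 throughout.

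Among p53 and its regulators, the inhibitor Mdm4 was by far the most abundant. Trp53, which encodes p53 (gene ID 22059, chr11:69580348-69591873 in GRCm38), was at 9.28, 10.46 and 13.59 FPKM in AAE embryos, 7.62, 14.30 and 22.31 in AAS embryos, and 19.72, 8.48 and 8.70 in control embryos. The groups overlapped, with a high library in both the AAS and the control group. Mdm4 (gene ID 17248, chr1:132986105-133030587) was at 675, 610.4 and 666 FPKM in AAE, 803, 846 and 837 in AAS, and 557, 656 and 820 in control. It lay above 99.8% of all genes by mean level, and the 3 AAS values were above all AAE values but overlapped the control. Within libraries the ratio of Mdm4 to Trp53 levels ran from 28.2 to 105, with a median of 59.1. Mdm2 was at 46.0, 45.5 and 30.4 FPKM in AAE, 37.5, 32.8 and 61.9 in AAS, and 54.9, 42.9 and 38.6 in control, with overlap between all groups. Its ratio to Trp53 ran from 2.24 to 5.06.

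Promoters were searched for a 10-base motif that makes up only part of a full p53 site, and those that hold it are shown. RefSeq promoters in GRCm38 (250 bases before to 50 after a start) were at hand for 43 of the 52 genes, 56 promoters in all. This 10-base motif, which reads the same on both strands, was searched by exact match, and full p53 sites were not searched. It occurred in 11 of the 56 promoters (19.6%) and in 8.36% of all 32851 promoters, a description only, since many of the genes are listed for being p53 targets. The other Cdkn1a promoter, at chr17:29093519-29093818, held no match. Cdkn1a, the best known of these, is shown whole at its upstream start, on the plus strand at chr17:29090729-29091028, with both matches in capitals.

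Cdkn1a: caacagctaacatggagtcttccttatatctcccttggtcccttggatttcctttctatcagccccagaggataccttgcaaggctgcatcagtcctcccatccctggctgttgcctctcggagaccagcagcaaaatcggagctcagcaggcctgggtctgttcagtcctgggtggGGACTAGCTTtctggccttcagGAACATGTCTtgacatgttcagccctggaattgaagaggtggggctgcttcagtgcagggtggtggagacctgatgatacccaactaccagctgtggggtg

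The other 9 genes with a match are shown as 30 bases on the gene's own strand, with the match in capitals, because they set p53 itself and its inhibitor beside pro-death and arrest genes that hold the same motif. They lie on the plus strand for Trp53 (chr11:69580274-69580303), Aen (chr7:78895927-78895956) and Sesn1 (chr10:41887256-41887285). The minus strand holds those of Mdm2 (chr10:117710925-117710954), Bax (chr7:45467080-45467109), Ccng1 (chr11:40755452-40755481), Gadd45a (chr6:67037428-67037457), Ei24 (chr9:36797325-36797354) and Birc2 (chr9:7836777-7836806).
Trp53: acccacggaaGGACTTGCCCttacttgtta
Mdm2: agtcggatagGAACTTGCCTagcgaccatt
Ccng1: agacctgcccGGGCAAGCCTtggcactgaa
Gadd45a: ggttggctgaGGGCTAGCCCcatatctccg
Sesn1: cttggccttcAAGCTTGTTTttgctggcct
Aen: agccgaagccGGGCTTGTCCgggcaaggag
Ei24: cgtgcggcccGGGCATGCCCagtgtgggcg
Bax: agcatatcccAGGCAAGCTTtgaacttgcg
Birc2: cagtcaacccAGGCTAGTCTcgaatttgcg

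These promoters belong to genes of very unlike levels, from Mdm2 at a mean of 43.4 FPKM to Birc2 at 1.52, and a match says nothing of binding in these embryos. Sesn1 and Birc2 each had a further promoter that held no match. Mdm4, Birc3 and Mcl1 had no match in their windows.

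Of the 12 p53 targets of arrest, stress and repair, Rrm2b was the most abundant. It encodes a subunit of ribonucleotide reductase that supplies nucleotides for repair, and was at 129, 90.8 and 77.3 FPKM in AAE, 112, 133 and 131 in AAS, and 102, 94.7 and 124 in control. Cdkn1a (gene ID 12575, chr17:29090979-29100722) encodes the cell-cycle inhibitor p21. It was at 10.3, 15.3 and 10.01 FPKM in AAE, 21.95, 16.5 and 34.3 in AAS, and 17.5, 22.95 and 18.1 in control. All 3 AAE values lay below all values of both other groups. Sesn2, a stress sensor that restrains growth signalling, was at 20.7, 23.1 and 14.6 FPKM in AAE, 42.8, 9.09 and 32.5 in AAS, and 18.8, 14.4 and 10.9 in control. The AAS libraries held both its highest and its lowest values.

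Lower in the same list, Ccng1 (cyclin G1, a regulator of MDM2) was at 17.6, 13.3 and 5.21 FPKM in AAE, 10.3, 3.36 and 10.4 in AAS, and 14.1, 15.8 and 14.4 in control. The 3 AAS values were below all control values, and AAE replicate 3 was low as well. Gadd45a, a stress protein that binds cell-cycle and repair factors, was at 15.6, 8.26 and 1.39 FPKM in AAE, 6.76, 7.81 and 13.2 in AAS, and 9.68, 11.6 and 8.63 in control. AAE replicates 1 and 3 thus held both its highest and its lowest value. Plk2, a polo-like kinase, was at 3.55, 3.21 and 5.83 FPKM in AAE, 0.36, 3.04 and 4.03 in AAS, and 3.17, 2.94 and 1.70 in control, so that AAE lay just above control. Means over all libraries were 12.8 FPKM for Ddit4, 5.32 for Gadd45b and 3.46 for Sesn1, and 0.786, 0.446 and 0.241 for Btg2, Gadd45g and Zmat3, which did not pass the filter.

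Of the p53 targets of death signalling, Ei24 and Trp53inp1 were well expressed and Aen and Perp were not. Ei24, an endoplasmic reticulum protein linked to autophagy, was at 29.8, 17.6 and 26.2 FPKM in AAE, 27.0, 11.8 and 29.7 in AAS, and 32.3, 30.4 and 26.7 in control. Trp53inp1, a cofactor that favours p53's death programme, was at 28.5, 17.7 and 16.4 FPKM in AAE, 23.9, 27.7 and 39.3 in AAS, and 19.6, 18.96 and 25.6 in control. Both genes overlapped between groups. Aen, a nuclease, had a mean of 2.25 FPKM, and Perp, a membrane protein, one of 0.753.

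Within the BCL2 family a gene listed here as pro-survival exceeded every gene listed as pro-death. Bcl2l10 (gene ID 12049, chr9:75347758-75351640) is known for its expression in oocytes and was listed as pro-survival, a role not tested here. It was at 421, 528 and 529 FPKM in AAE, 464, 378 and 477 in AAS, and 508, 488 and 308 in control. Its level was 16.1 to 56.1 times that of Bcl2l1, which encodes BCL-XL, and 23.9 to 76.3 times that of Mcl1 within libraries. Bcl2l1 was at 14.3, 17.1 and 17.4 FPKM in AAE, 13.1, 23.4 and 8.51 in AAS, and 13.7, 18.6 and 13.8 in control. For both of these genes the groups overlapped.

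Mcl1 (gene ID 17210, chr3:95656944-95663179), a short-lived pro-survival protein, was at 6.09, 9.83 and 6.94 FPKM in AAE, 8.83, 12.1 and 16.4 in AAS, and 18.8, 12.6 and 12.9 in control. The AAE values were below all control values and overlapped the AAS values. Bcl2 and Bcl2l2, the other pro-survival members, had means of 0.586 and 0.323 FPKM.

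The pore-forming members were scarce. Bax had 11.3 and 2.01 FPKM in the AAE libraries 1 and 2, with no value listed for the third. It was at 1.97, 0.09 and 2.17 in AAS, and 4.91, 0.63 and 0.15 in control. Its replicates spread widely within each group, and the groups overlapped. Bak1 was listed only in control replicates 1 and 3, at 0.51 and 0.18 FPKM, and Bok in 2 of the 9 libraries at up to 0.12 FPKM. Where a gene is not listed, a level of 0 cannot be told apart from a failed estimate.

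Of the 6 BH3-only proteins, the sensors that open the way for BAX, 3 passed the filter. Bid, which caspase 8 activates, was at 3.84, 1.30 and 2.98 FPKM in AAE, 3.87, 0.16 and 9.36 in AAS, and 4.05, 2.16 and 1.27 in control. Bcl2l11, which encodes BIM, was at 1.44, 2.68 and 3.34 FPKM in AAE, 2.05, 3.27 and 4.86 in AAS, and 2.57, 3.39 and 2.03 in control. Bik was at 0.77, 4.63 and 0.29 FPKM in AAE, was not listed in AAS replicate 1 and stood at 1.5 and 5.21 in the others, and was at 6.95, 2.32 and 1.5 in control. The groups overlapped for all 3. The p53 targets Pmaip1 (NOXA) and Bbc3 (PUMA) had means of 0.880 and 0.0644 FPKM, and Bad was listed in 1 library only.

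**Figure D2:**
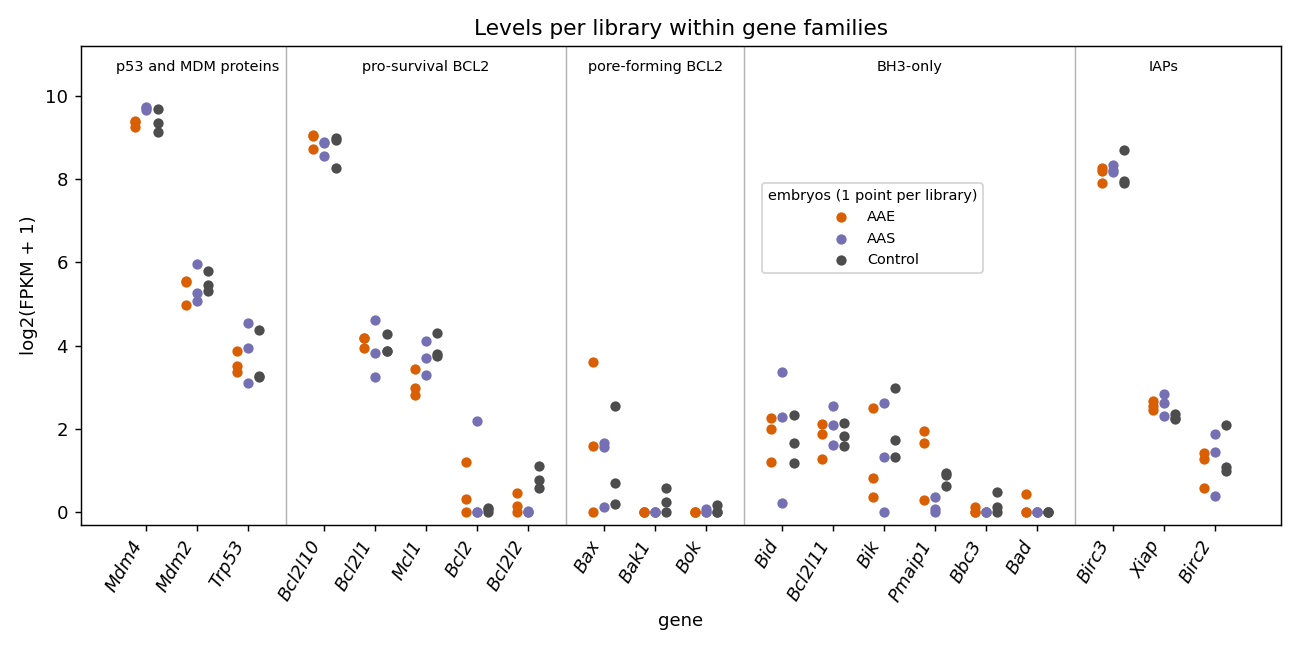
Levels of the p53, BCL2 and inhibitor of apoptosis (IAP) families as log2(FPKM + 1), with 1 point per library, for AAE, AAS and control embryos from left to right within each gene. Mdm4, Bcl2l10 and Birc3 each stand apart from the other genes of their family in all 9 libraries.

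The same contrast held among the inhibitor of apoptosis proteins, ubiquitin ligases that bind caspases or death receptor complexes. Birc3 (gene ID 11796, chr9:7847468-7873205) was at 292, 241 and 306 FPKM in AAE, 288, 325 and 299 in AAS, and 247, 239.9 and 415 in control. Its neighbour and paralog Birc2 (chr9:7818226-7837131) had a mean of 1.52 FPKM and did not exceed 3.27 in any library; how reads shared by both genes were counted is not given in the sources used here. Xiap, the direct caspase inhibitor, was at 4.91, 4.50 and 5.35 FPKM in AAE, 5.14, 3.95 and 6.19 in AAS, and 3.69, 4.16 and 3.79 in control. The 3 AAE values of Xiap were above all control values by a small margin. Birc3 was 48.2 to 110 times as high as Xiap within libraries.

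The caspase machinery stayed below 10 FPKM in every library. Cycs (gene ID 13063, chr6:50562563-50566569) encodes cytochrome c, and was at 6.43, 6.27 and 6.13 FPKM in AAE, 4.07, 1.27 and 4.10 in AAS, and 8.99, 8.61 and 4.67 in control. All AAS values lay below all AAE and all control values. Cycs has many processed pseudogenes, and how reads that match them were treated is not given in the sources used here. Apaf1, the scaffold of the apoptosome, was at 2.91, 3.39 and 4.67 FPKM in AAE, 2.77, 2.94 and 4.43 in AAS, and 3.67, 4.01 and 3.83 in control. Mean levels were 2.75 FPKM for Casp2, 0.633 for Casp6 and 0.247 for Casp9.

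In the death receptor pathway the inhibitor outweighed its caspase. Cflar, which encodes the caspase 8 decoy FLIP, was at 23.5, 35.9 and 16.9 FPKM in AAE, 21.7, 21.3 and 21.9 in AAS, and 32.95, 24.1 and 17.8 in control. Casp8 was at 0.10, 2.24 and 0.47 FPKM in AAE, 0.54, 3.30 and 1.31 in AAS, and 2.95, 1.51 and 4.20 in control. Cflar was higher than Casp8 in every library, by 4.25 to 235 times. Fadd, the adaptor that brings caspase 8 to death receptors, was at 4.60, 5.66 and 14.6 FPKM in AAE, 2.12, 2.88 and 3.77 in AAS, and 4.70, 2.09 and 4.44 in control. AAE exceeded AAS in all libraries, and AAE replicate 3 stood far above the rest. Fas, the receptor, was listed in control replicate 2 only, at 0.78 FPKM.

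Of the proteins that leave the mitochondrion, Aifm1 was the most abundant. This flavoprotein, which serves the respiratory chain in healthy cells, was at 13.6, 12.9 and 16.9 FPKM in AAE, 12.3, 5.49 and 6.77 in AAS, and 15.5, 9.19 and 11.6 in control, with AAE above AAS throughout. Htra2, a protease that removes IAPs, was at 6.69, 5.90 and 1.16 FPKM in AAE, 2.68, 5.89 and 1.58 in AAS, and 14.0, 4.60 and 3.53 in control. Diablo, another IAP antagonist, had a mean of 4.71 FPKM and Endog, a nuclease, one of 0.624. Dffa, the chaperone and inhibitor of the DNA fragmentation nuclease, was at 3.86, 8.06 and 3.27 FPKM in AAE, 2.12, 1.22 and 1.86 in AAS, and 3.72, 1.76 and 1.62 in control. The nuclease gene Dffb was listed in control replicate 3 only, at 0.06 FPKM.

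The comparison of AAE with control embryos asks whether exposure of sperm in the epididymis was followed by a p53 or death response in the embryo. No gene of the pathway passed the test in AAE embryos. Of the 35 genes tested with limma, 0 had an adjusted p under 0.05, as did 0% of all 9766 genes. At an unadjusted p under 0.05 there was 1, Mcl1, where 2.11% of all genes met that threshold (0.891% higher and 1.22% lower). That count was 0 without AAE replicate 3 or without control replicate 1, and 3 without AAE replicate 2. Without AAE replicate 1 it was 1, with Fadd in place of Mcl1. By sign, 13 were higher and 22 lower in AAE, and the median of their log2 fold changes was -0.06, beside -0.045 over all genes tested. Of all genes tested, 4353 were higher and 5411 lower in AAE. The groups did not overlap for 4 genes, Plk2 and Xiap above and Mcl1 and Cdkn1a below control, beside 8.51% of all genes (3.73% higher and 4.78% lower). By role, Trp53 with its regulators Mdm2 and Mdm4 and all 3 tested apoptosome and caspase genes had negative values, with medians of -0.05 and -0.07, and the 9 tested arrest, stress and repair targets had 3 positive and 6 negative values.

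The 2 smallest p-values belonged to genes with lower AAE values. Mcl1 had a mean of 7.62 ± 1.96 FPKM in AAE embryos and 14.7 ± 3.5 in control embryos (SD, n = 3 each), a log2 fold change of -0.87 (SE 0.334, unadjusted p = 0.024, limma adjusted p = 1). Cdkn1a had a mean of 11.9 ± 2.94 FPKM in AAE embryos and 19.5 ± 2.98 in control embryos (SD, n = 3 each), a log2 fold change of -0.69 (SE 0.317, limma adjusted p = 1). The next 6 by p were Casp8 at -1.10, Dffa at 0.82, Fadd at 0.87, Bik at -0.79, Gadd45a at -0.61 and Plk2 at 0.52 on the log2 scale, all with overlap except Plk2. Without AAE replicate 3 the value was 0.19 for Gadd45a, 0.42 for Fadd and 0.31 for Plk2. Without AAE replicate 2 it was 0.49 for Dffa and -1.42 for Bik, which was at -0.30 without control replicate 1. Casp8 was at -2.10 with a pseudocount of 0.1 FPKM and at -0.58 with array quality weights. Trp53 stood at -0.05 (SE 0.429), Mdm2 at -0.17 (SE 0.286) and Bax at 0.58 (SE 0.89), none past the threshold. Bax was at -0.36 without AAE replicate 1, Trp53 at 0.32 without control replicate 1 and Mdm2 at 0.03 without AAE replicate 3, each with the other sign. In the authors' deposited table the log2 fold changes were -0.896 for Mcl1 (adjusted p = 0.607) and -0.674 for Cdkn1a (adjusted p = 0.963), and 0 of the 38 genes of the pathway it holds had an adjusted p under 0.05, beside 15 of all 10179 genes (0.147%).

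**Figure D3:**
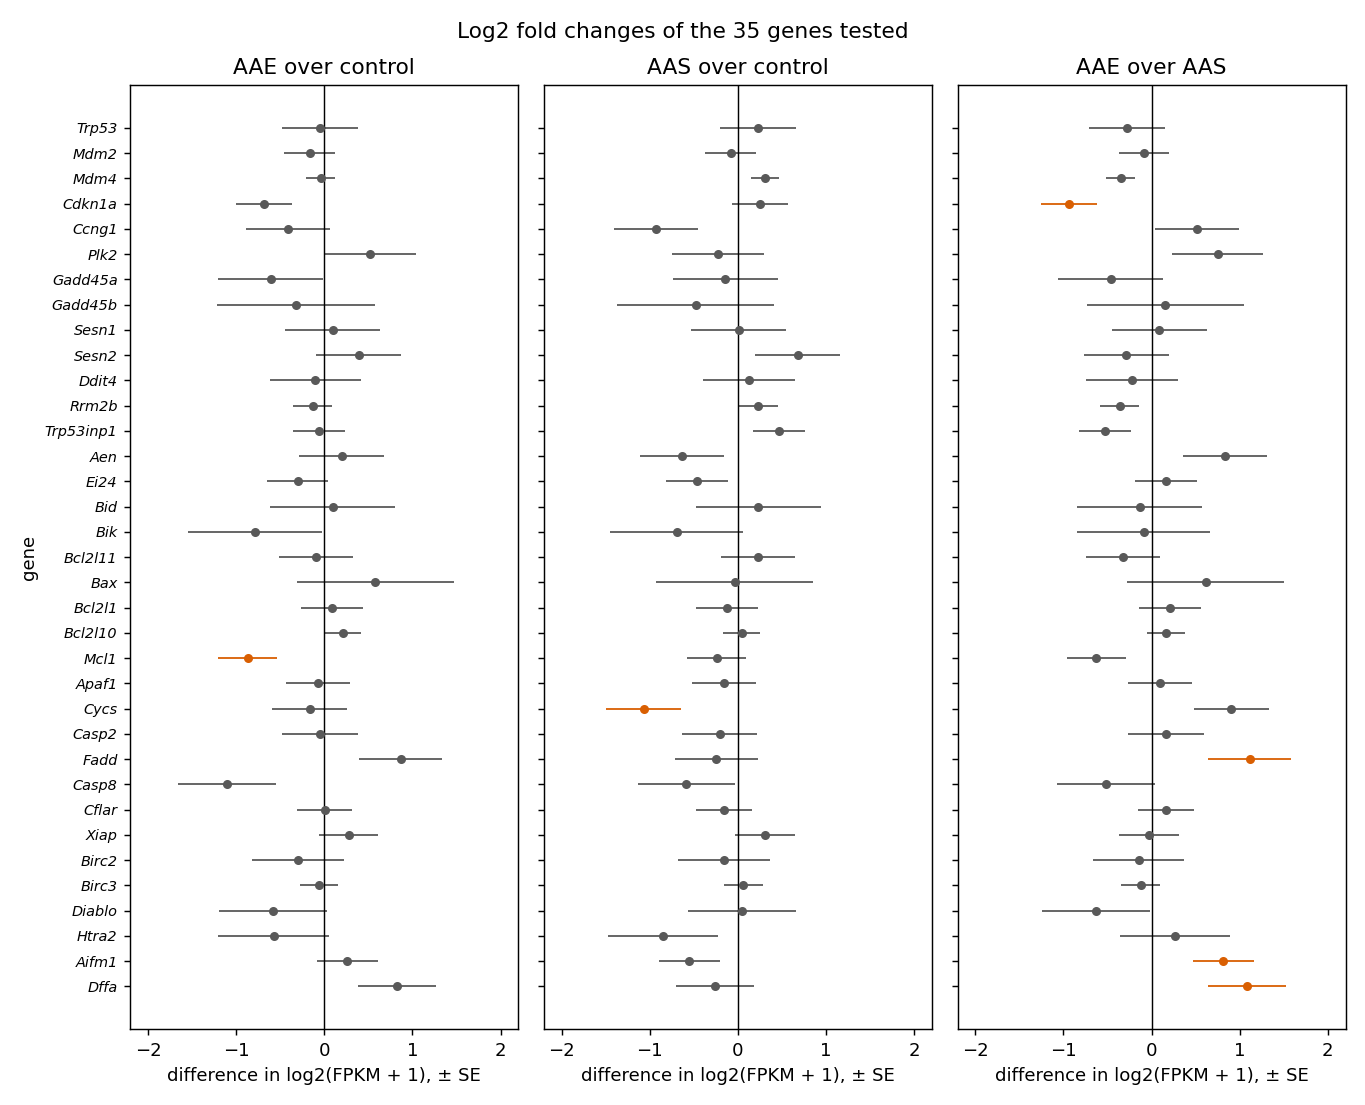
Differences in log2(FPKM + 1) with their standard errors for the 35 genes tested, for AAE over control, AAS over control and AAE over AAS, grouped by role. Orange points have an unadjusted p under 0.05 (Mcl1 in the left panel, Cycs in the middle, and Cdkn1a, Fadd, Aifm1 and Dffa in the right), and no adjusted p was under 0.05.

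The comparison of AAS with control embryos asks the same of sperm exposed as spermatocytes. Again 0 of 35 genes had an adjusted p under 0.05 in limma, beside 0% of all genes, and the smallest adjusted p was 0.75. At an unadjusted p under 0.05 there was 1, Cycs, where 6.16% of all genes met that threshold (1.53% higher and 4.64% lower). That count was 0 without control replicate 1 or 2. It was 2 without control replicate 3, AAS replicate 1 or AAE replicate 3, which enters through the shared estimate of the spread. Without AAS replicate 2 it was 1, with Sesn2 in place of Cycs. By sign, 14 were higher and 21 lower in AAS, and the median of their log2 fold changes was -0.14, beside -0.11 over all genes tested. With every library scaled to the same FPKM total these medians were -0.015 and 0.01. Of all genes tested, 3965 were higher and 5799 lower in AAS without that scaling. The control libraries are those of the AAE comparison. Groups did not overlap for Cycs and Ccng1, both lower in AAS, and for no gene that was higher, beside 13.1% of all genes (8.6% lower and 4.52% higher). By role, all 3 tested genes each of the apoptosome list and the death receptor pathway had negative values, with medians of -0.21 and -0.24, and the 9 tested arrest, stress and repair targets had 5 positive and 4 negative values.

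Cycs averaged 3.15 ± 1.63 FPKM in AAS and 7.42 ± 2.39 in control (SD, n = 3 each), a log2 fold change of -1.07 (SE 0.422, unadjusted p = 0.027, limma adjusted p = 0.75). It was at -0.68 without AAS replicate 2. Ccng1 averaged 8.02 ± 4.04 FPKM in AAS and 14.7 ± 0.903 in control (SD, n = 3 each), and its log2 fold change of -0.93 was -0.47 without AAS replicate 2. Mdm4 averaged 829 ± 22.7 FPKM in AAS and 677 ± 133 in control (SD, n = 3 each), a log2 fold change of 0.31 (SE 0.163, limma adjusted p = 0.794). Behind these came Aifm1 at -0.55, Trp53inp1 at 0.47, Sesn2 at 0.68, Htra2 at -0.85 and Ei24 at -0.46, all with overlap between groups. With single libraries left out, Sesn2 ranged from 0.26 to 1.32 (without AAS replicate 1 and 2), and Ei24 was at -0.07 without AAS replicate 2. Aifm1 ranged from -0.85 to -0.34 (without AAS replicate 1 and 2), Htra2 was at -0.32 without control replicate 1, Trp53inp1 at 0.27 without AAS replicate 3 and Mdm4 at 0.18 without control replicate 1.

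Trp53, Cdkn1a and Mdm2 were at 0.23, 0.25 and -0.08 in AAS against control on the log2 scale (SE 0.429, 0.317 and 0.286), and Bax at -0.04 (SE 0.89). Each of these 4 took the other sign in at least 1 alternative. Trp53 was at -0.11 and Cdkn1a at -0.02 without AAS replicate 3, and Mdm2 was at 0.10 and Bax at 0.46 without AAS replicate 2. The authors' deposited table gave log2 fold changes of -1.149 for Cycs (adjusted p = 0.561) and 0.59 for Trp53inp1 (adjusted p = 0.641). Of the 37 genes of the pathway in the authors' deposited table for AAS over control, 0 had an adjusted p under 0.05, beside 35 of all 10216 genes (0.343%).

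AAE and AAS embryos were also compared directly, on the same AAE and AAS libraries. The 2 groups had the same treatment and differed in the day of sperm collection, 3 or 24 days after the last injection. The stage exposed thus cannot be told apart from anything else that differed with the day of collection. Of the 35 genes, 0 had an adjusted p under 0.05 in limma, beside 0% of all genes (smallest adjusted p among the 35, 0.564). At an unadjusted p under 0.05 there were 4, Dffa, Fadd and Aifm1 higher and Cdkn1a lower in AAE, where 7.73% of all genes met that threshold (5.53% higher and 2.2% lower). That count was 2 without AAE replicate 2, AAS replicate 2 or AAS replicate 3. FPKM totals were 359534 to 407033 in AAE libraries and 342502 to 351634 in AAS libraries. With every library scaled to the same FPKM total the count was also 4, but with Dffa higher and Cdkn1a, Mcl1 and Mdm4 lower in AAE. Summed oocyte markers were also higher in AAE, with no overlap (3088 to 3902 FPKM, against 2704 to 3022 in AAS). Dppa3 made up a large part of these sums, at 1644, 2050 and 1818 FPKM in AAE and 1493, 1069 and 1266 in AAS. Without Dppa3 the sums of the 2 groups overlapped. Bmp15 went the other way, at 417, 507 and 512 FPKM in AAE and 516, 733 and 553 in AAS. The median log2 fold change of the 12 markers tested was 0.35, and 3 of them had an unadjusted p under 0.05 in limma. The part of these markers in the differences between AAE and AAS was not tested. Groups did not overlap for 6 genes, Dffa, Fadd, Aifm1 and Cycs higher and Cdkn1a and Mdm4 lower in AAE. Among all genes this held for 11.3% (6.98% higher and 4.28% lower). By sign, 17 were higher and 18 lower in AAE, and the median of their log2 fold changes was -0.03, beside 0.05 over all genes tested. With equal FPKM totals these medians were -0.134 and -0.06. All 3 tested apoptosome and caspase genes had positive values, with a median of 0.16. Negative values were held by all 3 tested genes each of p53 with its regulators, the BH3-only list and the inhibitor of apoptosis list. Their medians were -0.28, -0.13 and -0.125. Over all genes tested, 5325 values were positive and 4441 negative.

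Cdkn1a averaged 11.9 ± 2.94 FPKM in AAE and 24.3 ± 9.14 in AAS (SD, n = 3 each), a log2 fold change of -0.94 (SE 0.317, unadjusted p = 0.0129, limma adjusted p = 0.564). Dffa averaged 5.06 ± 2.61 FPKM in AAE and 1.73 ± 0.463 in AAS (SD, n = 3 each), a log2 fold change of 1.08 (SE 0.441). Fadd stood at 1.11 (SE 0.47) and at 0.66 without AAE replicate 3. Aifm1 stood at 0.815 (SE 0.348), Cycs at 0.905 (SE 0.422) and 0.52 without AAS replicate 2, Mdm4 at -0.35, Mcl1 at -0.63 and Trp53inp1 at -0.53 (-0.33 without AAS replicate 3). Trp53 was at -0.28, Mdm2 at -0.08 and Bax at 0.62, and each took the other sign with a library left out, AAS replicate 3 for Trp53, AAE or AAS replicate 3 for Mdm2 and AAE replicate 1 for Bax. In the authors' deposited table, where the direction is AAS over AAE, Cdkn1a was at 1.074 (adjusted p = 0.359) and Fadd at -1.497 (adjusted p = 0.482). Of the 37 genes of the pathway in the authors' deposited table, 0 had an adjusted p under 0.05, beside 55 of all 9951 genes (0.553%).

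**Figure D4:**
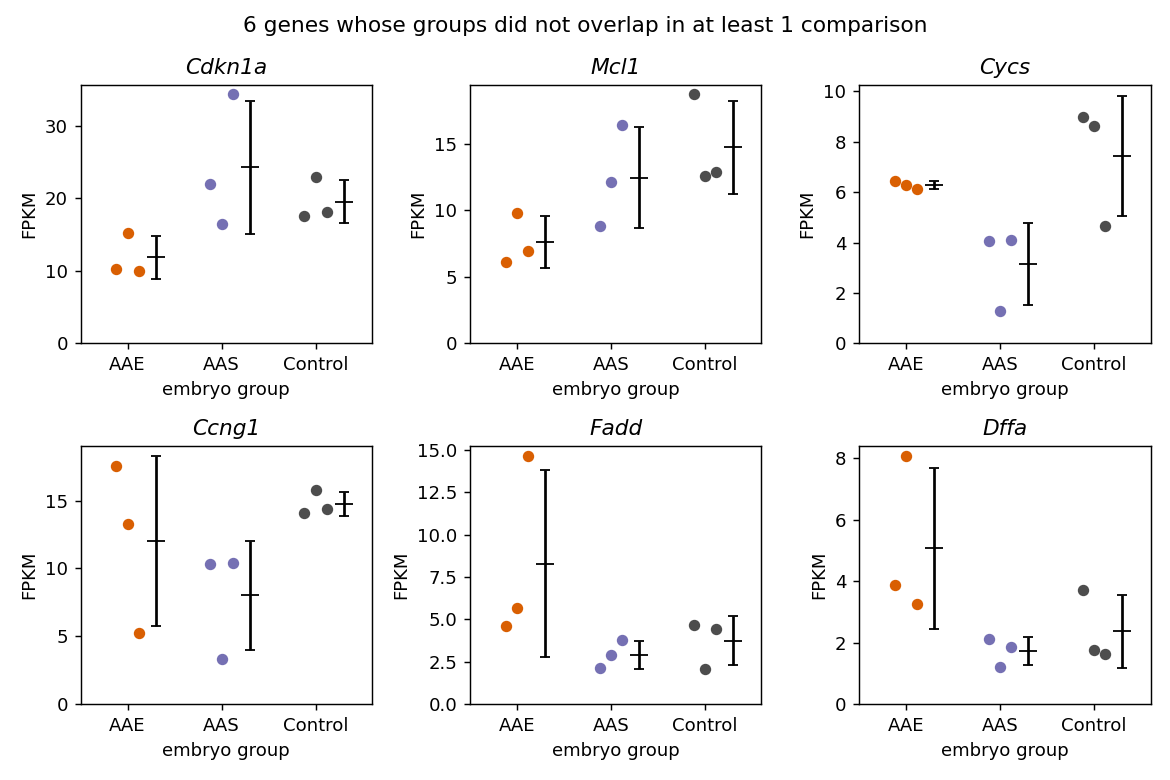
FPKM of Cdkn1a, Mcl1, Cycs, Ccng1, Fadd and Dffa in each library of AAE, AAS and control embryos, with the mean and SD of 3 libraries as a bar beside the points. AAE values of Cdkn1a lie below those of both other groups, AAS values of Cycs lie below those of both other groups, and no difference passed the test across all genes.

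The 2 libraries of lowest correlation held many of the lowest values. AAE replicate 3 held the lowest value for 11 of the 35 genes and for 20.1% of all genes tested. AAS replicate 2 held the lowest for 8 of the 35 and for 23.3% of all genes. The median SD among replicates, on the log2 scale, was 0.396 in AAE, 0.655 in AAS and 0.40 in control for the 35 genes, against 0.447, 0.498 and 0.321 for all genes. The part of these libraries in the differences above was measured only by leaving them out.

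No further gene of the same pathways passed the test. Of 38 other p53 pathway genes, such as kinases, phosphatases and further targets, 31 were tested, and of 52 other apoptosis genes 33 were tested. In limma 0 of each list had an adjusted p under 0.05 in any of the 3 comparisons. At an unadjusted p under 0.05, p53 pathway genes gave 0 in AAE against control, 1 lower in AAS against control and 3 higher in AAE against AAS, and apoptosis genes gave 0, 1 lower and 2 higher. Over all genes the shares were 2.11% in AAE against control, 4.64% lower in AAS against control and 5.53% higher in AAE against AAS. Ppm1d, the phosphatase that ends p53 signalling and is itself a p53 target, was at 36.5, 40.1 and 20.8 FPKM in AAE, 18.3, 17.02 and 19.5 in AAS, and 26.7, 35.3 and 33.8 in control. AAS lay below both other groups, with log2 fold changes of -0.77 for AAS against control (limma adjusted p = 0.747) and 0.75 for AAE against AAS (limma adjusted p = 0.582).

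Birc5, which encodes the mitotic protein survivin, was at 284, 323 and 239 FPKM in AAE, 165, 186 and 180.4 in AAS, and 315, 349 and 199 in control. AAS lay below both other groups, with log2 fold changes of -0.66 for AAS against control (limma adjusted p = 0.691) and 0.66 for AAE against AAS (limma adjusted p = 0.564). Ppm1d and Birc5 were picked for the smallest p in their lists. Over all genes, 8.6% were lower in AAS than in control with no overlap, and 6.98% higher in AAE than in AAS. The share of genes with both was not counted. The other genes with the smallest p in AAE against control were Ddb2, a damage sensor, at -0.71, Polk, a bypass polymerase, at 0.84, Bag1, a chaperone cofactor, at -0.87 and Vdac3, a mitochondrial channel, at 0.40. In AAS against control they were Rchy1, a p53 ubiquitin ligase, at -0.46 and Pdcd10 at -1.09. In AAE against AAS they were Triap1, a p53 target, at 1.45 and Pdcd2 at 1.23 on the log2 scale.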

How the data were processed

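Small RNA of cauda sperm and RNA of 2-cell embryos were sequenced; only the 9 embryo libraries are used here. The submitters' processing notes name HISAT2 2.0.4, DESeq2 and the build mm10, with no role or order. The FPKM values deposited by the authors are per transcript, in rows without transcript names, and transcripts at 0 are not listed. FPKM were summed per gene ID and an unlisted gene was taken as 0. These sums equalled the gene values of the authors' table for at least 99.96% of genes in each library (within 0.015 FPKM). The log2 fold changes and p-values deposited by the authors are quoted only as theirs. Genes averaging at least 1 FPKM over the libraries were tested with limma 3.58.1 in R 4.3.3 (eBayes with trend, two-sided) on log2(FPKM + 1) of all 9 libraries. All fold changes are on the log2(FPKM + 1) scale, where those of low genes come out too small. Benjamini-Hochberg adjustment over all 9766 genes used a threshold of 0.05. No counts were used, so depth is unknown and counting error is not given.

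The genes, lists and tests were chosen with earlier results of these data known. Named with values per library were Trp53, Cdkn1a, Mdm2 and Bax, the 8 genes with the smallest p in each comparison and the 2 most abundant per role, 30 genes in all. Other pathway genes named are the 2 with the smallest p per list and comparison. Of 16739 gene IDs, 16703 matched the RefSeq table of GRCm38, which gave coordinates and promoters. Plots used matplotlib 3.10.9 (Python 3.11.15).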

Additional observations from a re-analysis of the deposited data

How the results depend on the processing

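No gene of the pathway was called in any of the 20 alternatives to the fit, in any comparison. The smallest adjusted p over all settings was 0.876 for AAE against control, 0.356 for AAS against control and 0.375 for AAE against AAS. The count of all genes called stayed at 0, except in AAE against AAS without control replicate 3, where it was 1 (range 0 to 1 over libraries left out), a gene outside the pathway. Medians of the 35 genes moved by less than the SD between libraries but took both signs: with single libraries left out they ranged from -0.183 to 0.051 in AAE against control, -0.327 to 0.013 in AAS against control and -0.16 to 0.17 in AAE against AAS. Genes of the pathway with an unadjusted p under 0.05 ranged from 0 to 4 in AAE against control, 0 to 4 in AAS against control and 2 to 5 in AAE against AAS. Over all genes these counts ranged from 111 to 592, 304 to 1059 and 487 to 1037, beside 206, 602 and 755 as reported. With the replicate number as a block, the counts were 1, 1 and 4 for the pathway, as without it, and 201, 582 and 737 over all genes, with 0 called. Correlations of same-numbered deviations ran from -0.176 to 0.206, and the libraries were not treated as pairs in the main fit. Such correlations cannot show whether same-numbered libraries shared a day or male, which was not tested.

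Of 34 fold changes of named genes, 23 kept their direction in every alternative computed. All 23 belonged to the 8 genes with the smallest p in their comparison, a choice made on these same data that favours a kept direction. Some alternatives also cannot move a fold change, such as another filter or a library of the third group left out. The count is thus no measure of how stable these values are. The cause was not tested for the other 11, whose ranges over single libraries left out were these on the log2 scale. In AAE against control they were -0.36 to 1.45 for Bax, -1.21 to 0.19 for Gadd45a, -0.27 to 0.025 for Mdm2 and -0.24 to 0.32 for Trp53. In AAS against control they were -0.51 to 0.67 for Bax, -0.024 to 0.48 for Cdkn1a, -0.35 to 0.10 for Mdm2 and -0.11 to 0.61 for Trp53. In AAE against AAS they were -0.33 to 1.48 for Bax, -0.26 to 0.18 for Mdm2 and -0.66 to 0.061 for Trp53. Without both libraries of lowest correlation, Gadd45a was at 0.19 and Mdm2 at 0.025 in AAE against control, and Bax at 0.46 and Mdm2 at 0.10 in AAS against control. With the highest transcript of each gene, chosen after seeing the data, Mdm2 was at 0.20 in AAE against control and 0.24 in AAE against AAS, and Trp53 at -0.11 in AAS against control. In AAS against control, Bax was at 0.053 and Mdm2 at 0.054 with equal FPKM totals, at 0.29 and 0.003 with quantile normalization, and at 0.30 and 0.074 with array quality weights. Those weights put Trp53 at 0.048 in AAE against control. Equal totals moved the median of all genes in AAS against control from -0.11 to 0.01, and in AAE against AAS from 0.053 to -0.06. The transcript with the highest mean was not run, since rows carry no transcript names, and Bax, Bik, Casp8, Dffa, Fadd and Plk2 gave no value where a stricter filter removed them.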

Other observations

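The following genes did not pass the filter of 1 FPKM and were picked out after their values were seen. How many of all genes below the filter show such gaps between groups was not counted. Every AAS library listed fewer genes (12173 to 12673) than every control library (13675 to 14392). Of the other genes of the pathway below the filter, some had a higher mean in AAS than in control, such as Casp6 and Casp9, and others a lower one. Bcl2l2, a pro-survival member of the BCL2 family, had 0.38 and 0.11 FPKM in the AAE libraries 1 and 2, with no value listed for the third. It was listed in AAS replicate 3 only, at 0.02 FPKM, and was at 0.51, 0.72 and 1.17 FPKM in control. Both exposed groups thus lay below all control libraries, at levels where FPKM without counts are least certain. With no filter the log2 fold change was -0.63 for AAE (SE 0.164, limma adjusted p = 1) and -0.82 for AAS (SE 0.164, limma adjusted p = 0.565), both against control.

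Pmaip1, the BH3-only p53 target NOXA, was at 2.16, 2.87 and 0.23 FPKM in AAE, 0.06 and 0.28 in AAS replicates 1 and 2, and 0.85, 0.92 and 0.55 in control, and was not listed in AAS replicate 3. All control values lay above all AAS values. With no filter the log2 fold change of AAE against AAS was 1.16 (SE 0.407, limma adjusted p = 0.766). In the authors' deposited table, where the direction is AAS over AAE, it was -3.782 (adjusted p = 0.464).

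Btg2, an antiproliferative p53 target, was at 0.61, 1.11 and 0.17 FPKM in AAE, 0.29, 0.29 and 0.22 in AAS, and 2.64, 0.95 and 0.79 in control. All AAS values lay below all control values, with a log2 fold change of -0.88 (SE 0.33, limma adjusted p = 0.76 with no filter). The authors' deposited table gave -2.316 (adjusted p = 0.417).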
